A study of Mus musculus with 8 samples.

Results

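Among 54532 genes in the count files, 63 were raised in Trex1-knockout bone marrow-derived macrophages (BMDMs) and kept their raised level under 2 STING antagonists, H151 and SN-011. The genes were chosen by measured values, in CPM (counts per 1000000 counts of the same file). Each had a mean of at least 3 CPM in untreated knockout cells, each of the 6 knockout libraries was at least 1.5 times the higher wild-type (WT) library, and the mean with each antagonist was at least 0.9 times the untreated knockout mean. Their difference from WT and their level under each antagonist relative to the knockout are therefore descriptions, given with no test. The genes fell into recognisable kinds. They included genes of neutrophil cytosol and granules (S100a8, S100a9, Ngp, Ltf, Camp), genes of blood vessel lining (Cdh5, Tie1, Emcn, Robo4), 2 immunoglobulin constant genes (Igkc, Igha), and receptors and secreted proteins of macrophages (Cadm1, Cd5l, Gdf3, Folr2).

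RNA was measured by poly(A)-selected RNA-Seq in 8 libraries, 2 in each of 4 groups. BMDMs are macrophages grown from marrow, here for 7 days in medium with L929 cell supernatant, from WT and Trex1-/- mice of 6 to 8 weeks, on a C57BL/6J background per the study's methods. The groups were WT cells, Trex1-knockout cells (Trex1-KO), Trex1-KO cells given H151 at 500 nM and Trex1-KO cells given SN-011, for which the study's methods state the same nominal 500 nM, and each incubation ran for 12 h, with DMSO as vehicle. The same Trex1 knockout is carried by the 3 knockout groups, in every cell of the animal, and no antagonist was given to WT cells. The study describes the 2 libraries of a group as independent experiments, and neither it nor the labels say whether these used separate mice, so p-values measure the spread between such experiments. The labels word the treatment differently for SN-011 than for the other 6 libraries, and a batch shared by the SN-011 libraries cannot be told apart from SN-011. Totals ran from 11845470 to 17284863 counts. The 8 macrophage markers were measured in every library and summed to between 30018 and 33443 CPM. The knockout itself could not be checked, since Trex1 had 0 counts in all 8 libraries, WT included, and 100% of its exonic length lies within exons of Atrip, the gene it overlaps.

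TREX1 is an exonuclease that degrades DNA in the cytosol. Where it is missing, such DNA is sensed by cGAS, which makes the messenger cGAMP; cGAMP binds STING, and STING signalling through TBK1 and IRF3 induces type I interferon and, through it, interferon-stimulated genes. H151 attaches covalently to a cysteine of STING that is otherwise palmitoylated, and SN-011 occupies the pocket in which cGAMP binds. Neutrophil granule proteins are made in the marrow while granulocytes mature, and their mRNA is not characteristic of macrophages. Proteins such as VE-cadherin and endomucin are best known from endothelium, the cell layer that lines vessels.

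Of 11029 genes with a mean of at least 3 CPM in Trex1-KO cells, 350 were raised in both Trex1-KO libraries. All 4 antagonist libraries were also raised for 159 of these (45.4% of 350), and the ratio criterion left 63 (18%). It was missed with H151 alone by 12 genes, with SN-011 alone by 12 and with both by 72. None of 40 listed interferon-stimulated genes was a member, and 0 of the 63 belonged to M7core, the 159-gene set by which the study scores STING activity. Nothing is read from these counts, since the rule itself removed genes that the antagonists lowered. By edgeR's test, 40 of the 40 interferon-stimulated genes rose in Trex1-KO cells, and 38 were called lower with each antagonist. Of the 152 M7core genes tested, 124 were higher and 3 lower in Trex1-KO, although the study drew on Trex1-/- BMDMs when it chose that set, so its direction is not independent evidence. In the same libraries, the mean with H151 divided by the Trex1-KO mean ran from 0.196 to 0.852 over those 40 interferon-stimulated genes and from 0.9 to 1.66 over the members. With SN-011 the ratio ran from 0.182 to 0.848 over the interferon-stimulated genes and from 0.9 to 1.59 over the members. The members' median ratio was 1.05 with H151 and 1.07 with SN-011, beside 0.725 and 0.724 over all 350 raised genes. The rule kept only ratios of at least 0.9, so it set the members apart in these ratios by construction. They are a description only. The study's 7 gene modules, built from a time course of cGAS-STING activation, held 5 members (7.94%), against 7.76% of the 11029 expressed genes. These were Angpt2, Dhrs9, Pcp4l1 and Spn in module M7, which includes M7core, and Lat2 in M3.

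**Figure D1:**
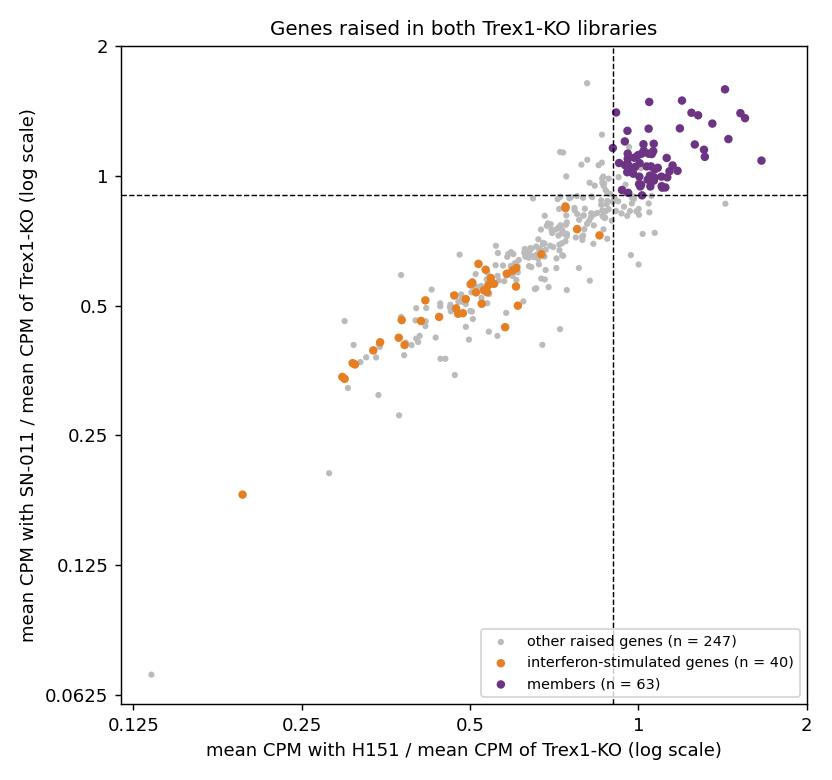
Mean CPM under H151 (x axis) and under SN-011 (y axis), each divided by the mean CPM of untreated Trex1-KO cells, for the 350 genes raised in both Trex1-KO libraries; both axes are logarithmic and dashed lines mark 0.9. The 63 members fill the upper right corner by construction, and the 40 interferon-stimulated genes lie at or below 0.852 on the x axis and 0.848 on the y axis.

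Genes close to the thresholds show how the set is bounded. Just inside the CPM threshold were Cd34 (3.17), Robo4 (3.36) and Emcn (3.36), and just outside it Esam (2.96), Inpp5j (2.53) and Cngb1 (2.52). For the lowest knockout library over the higher WT library, 5830444B04Rik (1.5), Mmp12 (1.51) and Cyfip2 (1.51) were just inside, and Lifr (1.5, below the threshold before rounding), Fam241a (1.49) and Sirpb1b (1.48) just outside. For the lower of the 2 antagonist ratios, Gm10419 (0.9), Eng (0.9) and Atp2a3 (0.912) were just inside, and H2-Q4 (0.889), Cd180 (0.888) and Lilra5 (0.885) just outside. Esam, an adhesion protein of endothelial junctions, is the near miss that resembles the vessel genes described later, and H2-Q4, an MHC class I gene, and Cd180, a Toll-like receptor relative, are near misses of immune function.

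All 63 passed the filter on low counts, and edgeR's quasi-likelihood test called the rise in Trex1-KO cells for all 63, against 9.27% of the 14591 genes tested, a count that the rule fixed and from which nothing is read. Their median log2 fold change over WT was 1.41, with a range from 0.76 to 6.80, beside a median of -0.002 over all tested genes. In level, 4 members had a mean of at least 100 CPM in Trex1-KO cells, 33 at least 10 and 30 under 10. The mean in Trex1-KO cells was at least 2 times the WT mean for 46 members, at least 4 times for 14 and at least 8 times for 8. By annotation 53 were protein coding, 5 lincRNAs, 2 processed pseudogenes, 2 immunoglobulin constant genes and 1 a processed transcript.

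**Figure D2:**
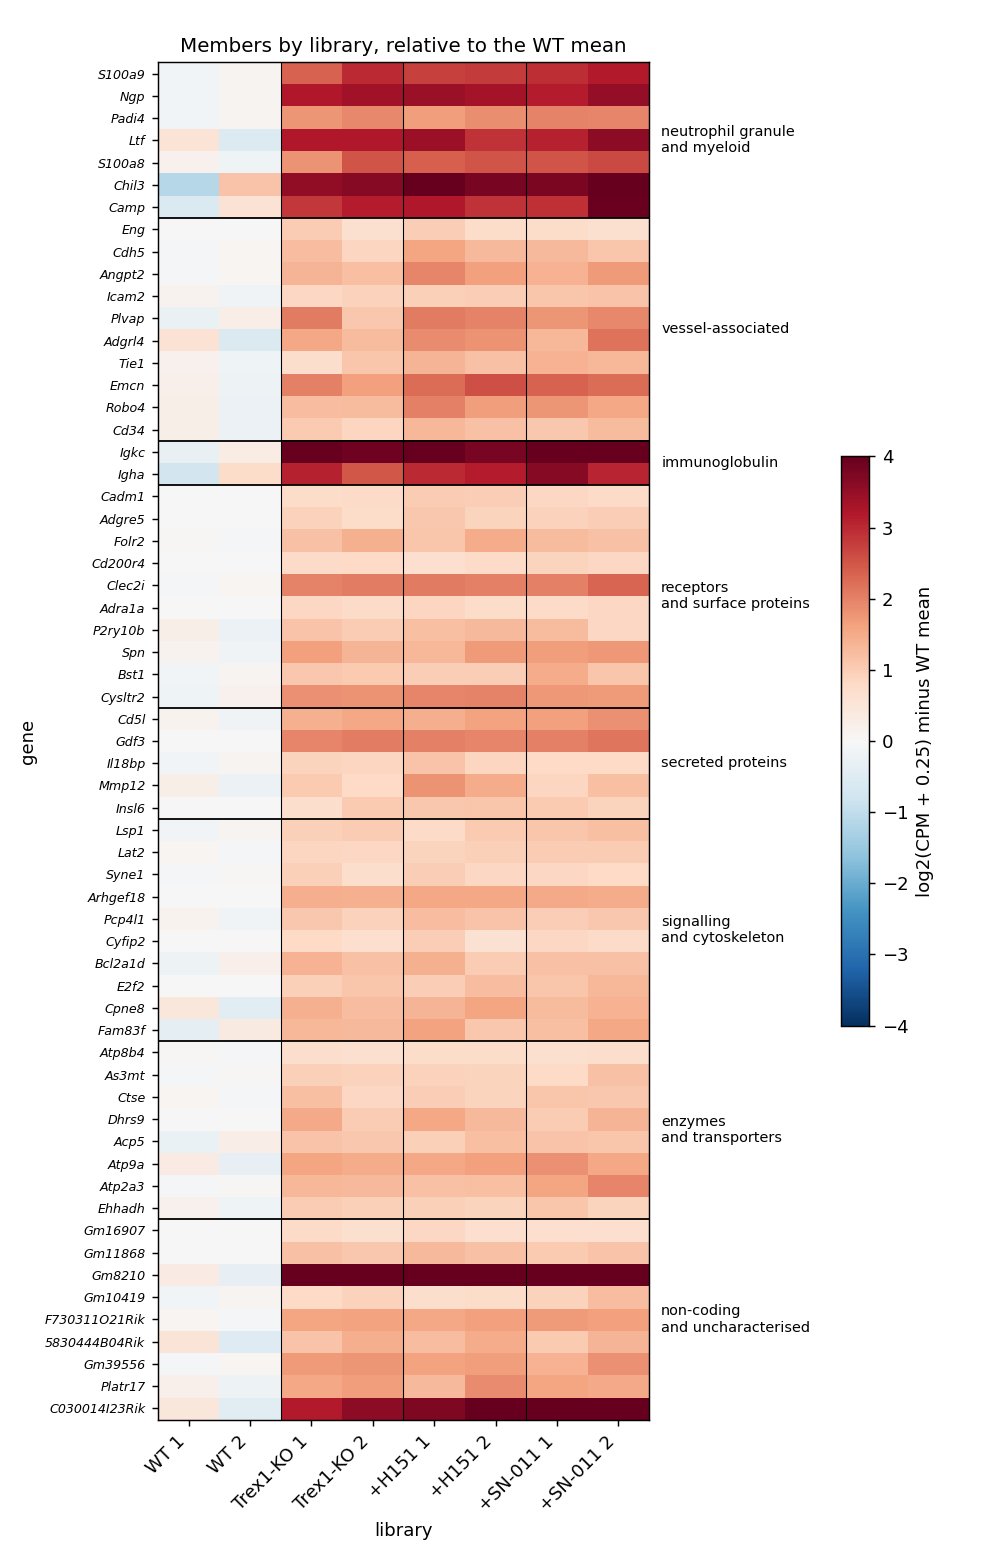
Level of 61 of the members (rows, grouped by function) in each of the 8 libraries (columns), as log2(CPM + 0.25) minus the mean of the 2 WT libraries; colours saturate at 4 in either direction. The 6 knockout columns are raised in every row, which the rule demanded, and the deepest colours are in the neutrophil granule and immunoglobulin rows and in Gm8210 and C030014I23Rik.

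The neutrophil granule and myeloid genes were the group with the largest joint rise among those of more than 2 members. Its 7 genes summed to 14.5 ± 0.617 CPM in WT cells (SD, n = 2, as for all such values) and to 95.6 ± 15.5 CPM in Trex1-KO cells, with 102 ± 3.10 CPM under H151 and 114 ± 17.1 CPM under SN-011. The bases upstream of 6 of them are shown so that promoters of this group can be set beside those of interferon-stimulated genes. The sequences are from RefSeq (build GRCm38.p6), read 5′ to 3′ on the gene's strand, and end before the first base that GENCODE annotates as exon of the gene. Capitals mark matches on either strand to 3 short words: TTGCNNAA (C/EBP family), GAGGAAGT (PU.1) and GAAANNGAA (the core of the interferon-stimulated response element).
S100a8: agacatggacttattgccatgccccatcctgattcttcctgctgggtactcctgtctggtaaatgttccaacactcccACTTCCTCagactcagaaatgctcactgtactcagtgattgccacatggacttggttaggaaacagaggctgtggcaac
S100a9: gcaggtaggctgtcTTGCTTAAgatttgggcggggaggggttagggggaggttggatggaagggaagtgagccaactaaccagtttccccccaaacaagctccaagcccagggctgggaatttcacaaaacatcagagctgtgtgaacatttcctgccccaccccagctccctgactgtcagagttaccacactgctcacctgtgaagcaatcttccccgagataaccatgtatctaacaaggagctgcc
Ngp: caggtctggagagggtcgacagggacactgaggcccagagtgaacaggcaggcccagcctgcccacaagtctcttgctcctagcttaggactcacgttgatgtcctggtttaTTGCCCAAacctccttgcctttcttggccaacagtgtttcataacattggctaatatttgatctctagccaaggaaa
Ltf: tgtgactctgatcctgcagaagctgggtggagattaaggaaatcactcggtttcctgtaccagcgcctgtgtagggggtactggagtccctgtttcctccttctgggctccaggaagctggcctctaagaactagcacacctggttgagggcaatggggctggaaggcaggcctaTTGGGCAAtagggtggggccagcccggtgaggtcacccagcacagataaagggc
Camp: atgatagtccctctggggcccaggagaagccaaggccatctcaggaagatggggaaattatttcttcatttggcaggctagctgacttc
Chil3: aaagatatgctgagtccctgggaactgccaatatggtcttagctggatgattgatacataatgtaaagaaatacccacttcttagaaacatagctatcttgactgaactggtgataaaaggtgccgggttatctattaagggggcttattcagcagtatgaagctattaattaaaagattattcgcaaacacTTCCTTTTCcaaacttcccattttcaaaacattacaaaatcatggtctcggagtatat
The stretches are chr3:90668821-90668977 (plus strand) for S100a8, chr3:90695722-90695971 (minus) for S100a9, chr9:110419558-110419746 (plus) for Ngp, chr9:111019042-111019270 (plus) for Ltf, chr9:109849618-109849706 (minus) for Camp and chr3:106167565-106167814 (minus) for Chil3. The C/EBP word began 236 bases before the RefSeq start in S100a9, 138 bases before it in Ngp and 75 bases before it in Ltf. The PU.1 word began 172 bases before the start in S100a8, and the interferon word 58 bases before it in Chil3. The stretch of 89 bases shown for Camp held none of the 3 words.

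The promoter table, which spans 250 bases before to 50 after each start, matched 39 of the 63 members. The interferon word was in a promoter of 6 of these 39 (15.4%), of 62 of 130 M7core genes (47.7%) and of 782 of 8525 expressed genes (9.17%). The 6 were Acp5, Chil3, F730311O21Rik, Folr2, P2ry10b and Pcp4l1. TTCNNNGAA, a STAT word, was found for 1 member, Chil3 (2.56%), against 8.12% of expressed genes, and GGGACTTTC, an NF-kappaB word, for 0 members, against 0.469%. The C/EBP word was in 8 promoters (20.5%), against 10.1% of expressed genes and 8.46% of M7core genes. The PU.1 word was in 7 (17.9%), against 4.06% of expressed genes and 3.85% of M7core genes. Members had 1.41 annotated starts each and expressed genes 1.28, so members offered slightly more bases to match. A match describes the letters and is not a binding site, and 8 and 7 genes are small counts.

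S100a8 and S100a9 encode the paired subunits of calprotectin, a calcium-binding protein abundant in neutrophil cytosol, and they are neighbours on chromosome 3 with 22.6 kb between them. S100a9 measured 2.81 and 3.30 CPM in the WT libraries, 16.7 and 26.0 in Trex1-KO, 21.6 and 22.9 under H151 and 25.1 and 29.7 under SN-011. S100a8 measured 3.27 and 2.53 CPM in WT, 10.6 and 17.8 in Trex1-KO, 16.3 and 17.5 under H151 and 17.5 and 19.2 under SN-011. In both genes the first Trex1-KO library was the lowest of the 6 knockout libraries and the second Trex1-KO library lay among the antagonist libraries.

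Ngp, Ltf and Camp encode proteins of the secondary granules: neutrophilic granule protein, the iron binder lactoferrin and the antimicrobial peptide cathelicidin. Ngp measured 1.52 and 1.82 CPM in WT, 17.3 and 19.6 in Trex1-KO, 20.8 and 19.1 under H151 and 16.7 and 21.7 under SN-011, an 11-fold difference between the Trex1-KO and WT means. Ltf measured 2.05 and 0.842 CPM in WT, 14.3 and 14.2 in Trex1-KO, 16.9 and 11.5 under H151 and 13.1 and 18.7 under SN-011. Camp measured 0.0761 and 0.491 CPM in WT, from 1 and 7 counts, and between 3.25 and 7.43 CPM in the knockout libraries. For these 3 genes the ranges of Trex1-KO, H151 and SN-011 libraries overlapped, and both WT libraries lay below them.

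Chil3 (Ym1), a chitinase-like secreted protein, measured 0 and 0.982 CPM in WT and between 6.28 and 11 CPM in the knockout libraries. Padi4, the enzyme that citrullinates histones in neutrophils, was the least raised of the group, with 4.34 and 4.98 CPM in WT and 15.3 to 19 CPM in the knockout libraries. The other 4 of the 9 neutrophil markers listed were not members. Retnlg, a resistin-like protein, had a log2 fold change of 1.95 between Trex1-KO and WT (edgeR adjusted p = 0.0113), from 0.228 and 0.772 CPM in WT to 1.55 and 2.18 CPM in Trex1-KO, below the CPM threshold of the rule. Mpo (myeloperoxidase) and Elane (neutrophil elastase), of the primary granules, had at most 11 and 7 counts in any library, and Ly6g, the surface marker of mature neutrophils, had 0 counts in both WT libraries and at most 3 in any knockout library. Lcn2, a secondary granule protein named after its values were seen, rose from 0.685 and 0.702 CPM in WT to 9.16 and 7.05 CPM in Trex1-KO (log2 fold change 3.61, edgeR adjusted p = 1.7e-06) and missed the rule, with ratios of 0.831 under H151 and 0.695 under SN-011. Summed over the 9 markers, levels were 9.75 to 10.2 CPM in WT, 64.7 to 84.7 in Trex1-KO, 77.5 to 83.0 under H151 and 78.4 to 100 under SN-011. In bulk RNA, fewer cells of a type and less RNA per cell cannot be told apart, and the part of neutrophils in the members' levels was not tested.

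**Figure D3:**
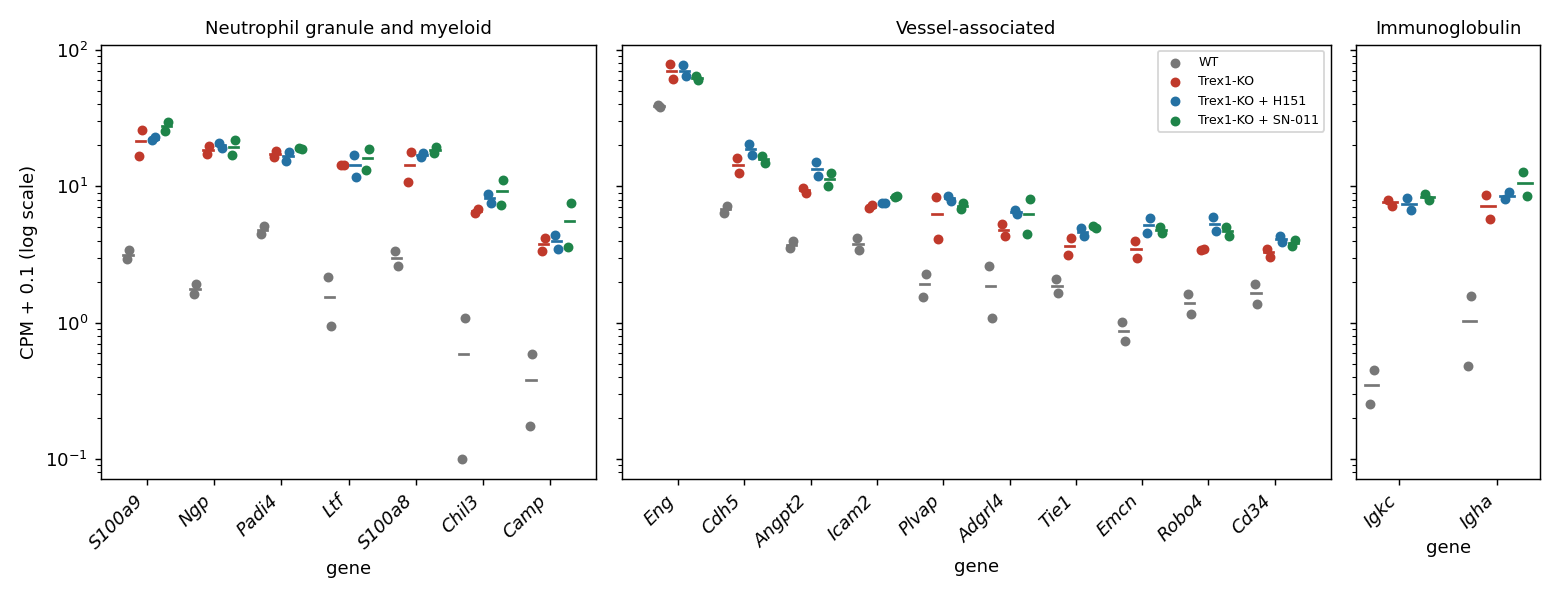
CPM + 0.1 on a logarithmic axis for the neutrophil granule and myeloid genes, the vessel-associated genes and the immunoglobulin genes; points are libraries (2 per group), short lines their means and colours the 4 groups. WT points lie below the points of the 3 knockout groups for each gene, and the knockout groups overlap or lie close to one another.

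The vessel-associated genes, 10 in number, summed to 61.6 ± 2.74 CPM in WT, 124 ± 19.1 in Trex1-KO, 143 ± 15.4 under H151 and 129 ± 0.191 under SN-011. Eng, the TGF-beta co-receptor endoglin, which macrophages also express, measured 39.5 and 37.8 CPM in WT, 78.1 and 60.6 in Trex1-KO, 77.0 and 63.8 under H151 and 64.5 and 60.4 under SN-011. Cdh5, VE-cadherin of endothelial junctions, measured 6.31 and 7.02 CPM in WT, 15.9 and 12.4 in Trex1-KO, 20.4 and 16.8 under H151 and 16.5 and 14.8 under SN-011. Angpt2, a ligand of the receptor TIE2, measured 3.42 and 3.86 CPM in WT, 9.67 and 8.78 in Trex1-KO, 14.9 and 11.9 under H151 and 9.95 and 12.5 under SN-011. Both H151 libraries lay above both Trex1-KO libraries for 8 of the 10 vessel genes, Cdh5 and Angpt2 among them, and for 19 of the 63 members. The rule left out genes that H151 lowered, so nothing is read from these counts.

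Emcn, the sialomucin endomucin, showed the largest rise of the group, with 0.913 and 0.631 CPM in WT, 3.84 and 2.88 in Trex1-KO, 4.47 and 5.77 under H151 and 4.92 and 4.47 under SN-011. Robo4, a receptor that stabilises vessels, measured 1.52 and 1.05 CPM in WT, 3.32 and 3.40 in Trex1-KO, 5.85 and 4.57 under H151 and 4.92 and 4.22 under SN-011. Tie1, Plvap, Adgrl4, Cd34 and Icam2 completed the group, with Trex1-KO means of 3.17 to 6.99 CPM and 1.89 to 3.40 times the WT means. Tie1 is an orphan receptor of the angiopoietin system, Plvap forms the diaphragms of fenestrae, Adgrl4 is an adhesion G protein-coupled receptor, Cd34 is a sialomucin of progenitors and endothelium, and Icam2 is an integrin ligand. The Plvap replicates lay far apart, with 8.27 and 4.04 CPM in the 2 Trex1-KO libraries.

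The mean under H151 was above the Trex1-KO mean for 10 of the 10 vessel genes, with a median ratio of 1.31. Under SN-011 the mean was above Trex1-KO for 9 of 10, with a median ratio of 1.20. The rule admitted no gene below 0.9, so these counts describe the genes and carry no test. Of the 5 endothelial markers listed, 3 were called higher in Trex1-KO, against 9.27% of all genes tested. Among these 3, Cdh5 and Emcn were members, whose rise the rule demanded. Kdr, the VEGF receptor, was the third, with 9.51 and 9.54 CPM in WT and 22.4 and 16.7 in Trex1-KO (log2 fold change 1.12, edgeR adjusted p = 3.2e-04), and it missed the rule at a ratio of 0.896 under H151 and 0.787 under SN-011. Pecam1 (log2 fold change 0.31, edgeR adjusted p = 0.187) and Tek (0.47, edgeR adjusted p = 0.735) did not pass the test. The 5 markers summed to 27.8 and 27.9 CPM in WT, 43.6 to 56.1 in Trex1-KO, 55.9 to 63.3 under H151 and 51.8 to 54.3 under SN-011, and none was at 0 in any library. Markers of stromal cells, another non-haematopoietic type, went the other way, from 3106 to 3410 CPM in WT to between 1176 and 1707 CPM in the knockout libraries. Whether endothelial cells contributed to these levels was not tested.

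Igkc and Igha encode the constant regions of the kappa light chain and of IgA. Igkc measured 0.152 and 0.351 CPM in WT, 7.90 and 7.12 in Trex1-KO, 8.13 and 6.63 under H151 and 8.68 and 7.85 under SN-011, a 29.9-fold difference between the Trex1-KO and WT means. Igha measured 0.380 and 1.47 CPM in WT, 8.49 and 5.64 in Trex1-KO, 7.96 and 8.95 under H151 and 12.7 and 8.44 under SN-011. For both genes WT was far below the other groups, which overlapped one another. Jchain, the chain that joins IgA and IgM units, had 7 and 0 counts in WT and 22 to 46 in the knockout libraries (log2 fold change of Trex1-KO over WT 3.04, edgeR adjusted p = 0.0065). Ighm, the heavy chain of IgM, fell from 41.7 and 38.9 CPM in WT to 12.3 and 11.5 in Trex1-KO (log2 fold change -1.67, edgeR adjusted p = 1.8e-07), so the immunoglobulin genes did not move as a block. The 7 B cell markers, Ighm and Jchain among them, summed to 42.2 to 44.6 CPM in WT and 14.6 to 19.2 CPM in the knockout libraries, a fall carried by Ighm, which made up most of the sum in every library. Without Ighm the rest of the list was higher in each knockout library than in WT, with Cd79b, a chain of the B cell receptor, at 1.75 and 2.6 CPM in WT and 2.28 to 4.47 in the knockout libraries (log2 fold change of Trex1-KO over WT 0.58, edgeR adjusted p = 0.258). Ms4a1 and Pax5 had 3 or fewer counts in every library. The part of B lineage cells in Igkc and Igha was not tested.

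Receptors and surface proteins, 11 in number, summed to 608 ± 12.1 CPM in WT and 1412 ± 11.2 in Trex1-KO. Cadm1, an immunoglobulin-type adhesion protein, measured 291 and 299 CPM in WT, 494 and 505 in Trex1-KO, 594 and 581 under H151 and 521 and 505 under SN-011. Its H151 libraries lay above the other knockout libraries.

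Folr2, a folate receptor of tissue macrophages, rose 2.48-fold to 75.7 ± 10.0 CPM in Trex1-KO, and 63.1% of its exonic length is shared with another gene, where reads may not have been counted. Adgre5 (CD97), an adhesion receptor of leukocytes, was at 49.3 ± 0.493 CPM in WT and 87.5 ± 7.37 in Trex1-KO. Clec2i, a C-type lectin-like protein of a family with close paralogs, measured 6.01 and 6.60 CPM in WT and 25.8 to 32.9 CPM in the knockout libraries. Cd200r4, an activating CD200 receptor relative, measured 24.1 in both WT libraries and 38.2 to 45.1 CPM in the knockout libraries. Cysltr2 (a leukotriene receptor), Spn (leukosialin, CD43), P2ry10b (a P2Y10-type G protein-coupled receptor), Bst1 (the ectoenzyme CD157) and Adra1a (an adrenergic receptor) had Trex1-KO means of 5.29 to 26.2 CPM, with Trex1-KO to WT ratios from 1.75 for Adra1a to 3.94 for Cysltr2.

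Secreted members included Cd5l, an apoptosis inhibitor released by tissue macrophages. Cd5l measured 135 and 114 CPM in WT, 334 and 366 in Trex1-KO, 338 and 377 under H151 and 390 and 438 under SN-011. Per kilobase of exon, Cd5l reached 172 CPM in Trex1-KO against 47.9 for Cadm1 and 42.0 for Gdf3, the highest level among the members on that scale. Gdf3, a TGF-beta family ligand, measured 24.9 and 25.5 CPM in WT, 98.9 and 105 in Trex1-KO, 102 and 98.7 under H151 and 102 and 111 under SN-011. The 6 knockout libraries of Gdf3 overlapped across groups. Il18bp, a soluble inhibitor of IL-18, measured 43.1 and 50.4 CPM in WT and 80.6 to 104 CPM in the knockout libraries. Insl6, a relaxin-family peptide, was at 2.12 ± 0.0176 CPM in WT and 4.15 ± 0.750 in Trex1-KO.

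Mmp12, macrophage elastase, measured 9.81 and 7.16 CPM in WT, 17.7 and 14.8 in Trex1-KO, 30.1 and 23.9 under H151 and 15.5 and 19.8 under SN-011. Its ratio of 1.66 under H151 was the highest among the members, at the top of a range in which Robo4 (1.55), Emcn (1.52), Angpt2 (1.45) and C030014I23Rik (1.43) came next. It was the 1 member called between Trex1-KO+H151 and Trex1-KO, against 2.23% of tested genes, and 0 members were called between Trex1-KO+SN-011 and Trex1-KO, against 2.33%; the rule used both contrasts and nothing is read from these counts.

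Signalling and cytoskeletal members, 11 in number, summed to 145 ± 1.04 CPM in WT and 297 ± 10.9 in Trex1-KO. Arhgef18, a guanine nucleotide exchange factor, measured 10.0 and 9.89 CPM in WT and 27.2 to 29.8 CPM in the knockout libraries, a spread of under 3 CPM. Lsp1 (an actin-binding leukocyte protein), Lat2 (an adaptor of immune receptors), Syne1 (nesprin, a nuclear envelope linker) and Cyfip2 (a WAVE complex subunit) rose 1.68 to 1.98-fold. Bcl2a1d, an anti-apoptotic BCL2 relative, measured 7.76 and 10.4 CPM in WT and 18.6 to 24.3 in the knockout libraries. Its near-identical neighbour Bcl2a1b measured 7.07 and 10.3 CPM in WT and 4.14 and 8.72 in Trex1-KO, and reads may be split between these copies, so the values of Bcl2a1d are uncertain. E2f2, Cpne8, Fam83f and Pcp4l1 made up the rest, with ratios of 2.01 to 2.68.

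Enzymes and transporters numbered 8 and had the smallest joint rise, 1.88-fold, from 87.1 ± 3.01 to 164 ± 9.45 CPM. Atp8b4, a lipid flippase, was the most abundant, at 47.2 ± 2.59 CPM in WT and 75.3 ± 1.64 in Trex1-KO. Acp5, the tartrate-resistant phosphatase of osteoclasts and macrophages, measured 3.80 and 5.54 CPM in WT and 9.18 to 10.9 in the knockout libraries. Ctse (cathepsin E), As3mt (arsenite methyltransferase), Dhrs9 (a retinol dehydrogenase), Atp9a (another flippase), Atp2a3 (a calcium pump) and Ehhadh (a peroxisomal enzyme of fatty acid oxidation) had Trex1-KO to WT ratios from 1.95 to 2.98.

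The non-coding and uncharacterised members, 9 in number, included the highest ratio of the set. Gm8210, annotated as a processed pseudogene (chromosome 1, 43189156 to 43189638), had 2 and 0 counts in WT and 8.64 and 8.65 CPM in Trex1-KO, a ratio of pooled counts per depth of 118 with an exact 95% counting interval from 32.5 to 984. Its transcript of 483 bases aligned to that of Rpl29, a ribosomal protein gene, with 480 identical bases (99.4%), and reads of such copies can be assigned to either. Rpl29 (chromosome 9, 106429454 to 106431568) fell from 299 and 287 CPM in WT to 4.06 and 3.21 in Trex1-KO (log2 fold change -6.26, edgeR adjusted p = 2.1e-13). Neither value of the pair can therefore be read as the expression of 1 gene.

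C030014I23Rik, a lincRNA on chromosome 9, had 3 and 0 counts in WT and 2.88 to 5.40 CPM in the knockout libraries, a ratio of 31.0 with a counting interval from 10.3 to 153, and 73.7% of its exonic length is shared with another gene. Gm16907, Gm11868, Gm10419, F730311O21Rik, 5830444B04Rik, Gm39556 and Platr17 had ratios of 1.64 to 3.70. Intervals cover counting error alone, and PCR copies of a molecule can be counted more than once.

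Location was not used by the rule. Chromosome 9, which carries Trex1, held 10 of the 63 members (15.9%) and 607 of the 11029 expressed genes (5.5%). Of the 350 genes raised in both Trex1-KO libraries, from which the members were drawn, it held 16 (4.57%). No other chromosome held more than 6 members. Among protein-coding genes the shares were 9 of 53 members (17%) and 5.58% of expressed genes. Within 2 Mb of Trex1 lay 3 members (4.76%), against 72 expressed genes (0.653%) and 5 of the 350 raised genes (1.43%). The 3 members were Camp at 0.788 Mb, Ngp at 1.36 Mb and Ltf at 1.96 Mb. All 3 are neutrophil granule genes, so nearness to Trex1 and granule function cannot be told apart for them. Bcl2a1d lay at 20.3 Mb, and Cadm1, C030014I23Rik, Robo4, Acp5 and Mmp12 at 61.2 to 102 Mb on the same chromosome. Rpl29, whose counts fell, ends at position 106431568 of chromosome 9, and Trex1 starts at 109057933. The fall of Rpl29 and the rise of Gm8210 cannot be read apart.

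Atrip, which overlaps Trex1, measured 14.6 and 18 CPM in WT, 63.4 and 68.4 in Trex1-KO and 53.9 to 56.3 under the antagonists, and missed the rule at ratios of 0.844 and 0.819. Away from chromosome 9, Folr2 and Il18bp lay 158 kb apart on chromosome 7 and Ctse and F730311O21Rik 667 kb apart on chromosome 1.

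**Figure D4:**
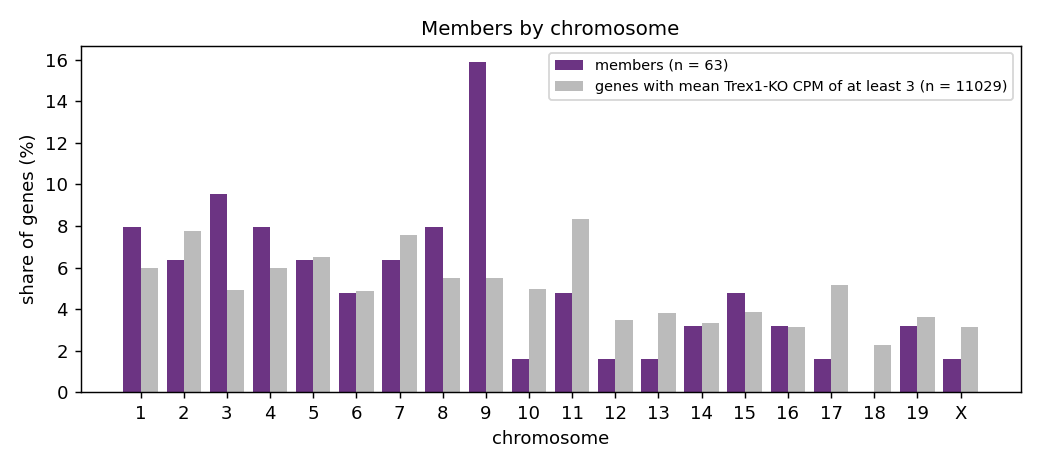
Share of genes on each chromosome (bars from 0, in percent) for the 63 members and for the 11029 genes with a mean of at least 3 CPM in Trex1-KO cells; chromosomes Y and M, with no member, are left out. Chromosome 9 holds 15.9% of the members and 5.5% of the expressed genes.

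The rule set no bound on the difference between SN-011 and H151, but it set the same lower bounds on both, and so removed 12 genes that fell short with H151 alone and 12 that fell short with SN-011 alone. The small differences between the antagonists among members are therefore partly set by that choice, and the absence of calls is not read as likeness. No member was called by edgeR's quasi-likelihood test with Benjamini-Hochberg adjustment over 14591 genes, and DESeq2 also called 0. Over all tested genes 23 were called (0.158%). At an unadjusted p under 0.05 there were 6 of 63 members, 3 in each direction, beside 1300 of the 14591 genes tested, a like share. The lowest adjusted p among members was 0.271. The median log2 difference over the 63 members was 0.003, with 32 above 0 and 31 below, and over all tested genes it was also 0.003.

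Mmp12 was lower with SN-011 than with H151 by a log2 difference of -0.62 (95% interval -0.98 to -0.27, edgeR adjusted p = 0.271), the largest fall among the members, in 2 of 2 SN-011 libraries. Cadm1 differed by -0.20 (-0.31 to -0.09, edgeR adjusted p = 0.271). Atp2a3, the calcium pump, was higher with SN-011, at 11.8 and 15.5 CPM against 8.78 and 9.01 under H151, a log2 difference of 0.60 (0.25 to 0.95, edgeR adjusted p = 0.308). Cd5l (0.21), Lsp1 (0.23) and Il18bp (-0.22) were the other 3 members below an unadjusted p of 0.05. None of the 6 held after adjustment.

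For the other 57 members the interval included 0. The intervals of 62 members stayed within 1 log2 unit of 0 and those of 28 within 0.5. The exception at 1 log2 unit was Camp, whose upper bound of 1.24 was the highest. For Gdf3 the difference was 0.08, with a standard error of 0.07. A miss of the threshold does not show that the antagonists act alike.

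By group, the neutrophil granule and myeloid genes had a median log2 difference of 0.15, with 6 of 7 higher under SN-011. The vessel genes had one of -0.15, with 8 of 10 lower. Over all tested genes, 7411 of 14591 were higher under SN-011. Genes of a group were measured in the same libraries, and the groups were formed with earlier results known, so these counts carry no test. None of these 17 genes was called. Both SN-011 libraries lay above both H151 libraries for 13 members, against 21.1% of the expressed genes, and below both for 14, against 20%.

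**Figure D5:**
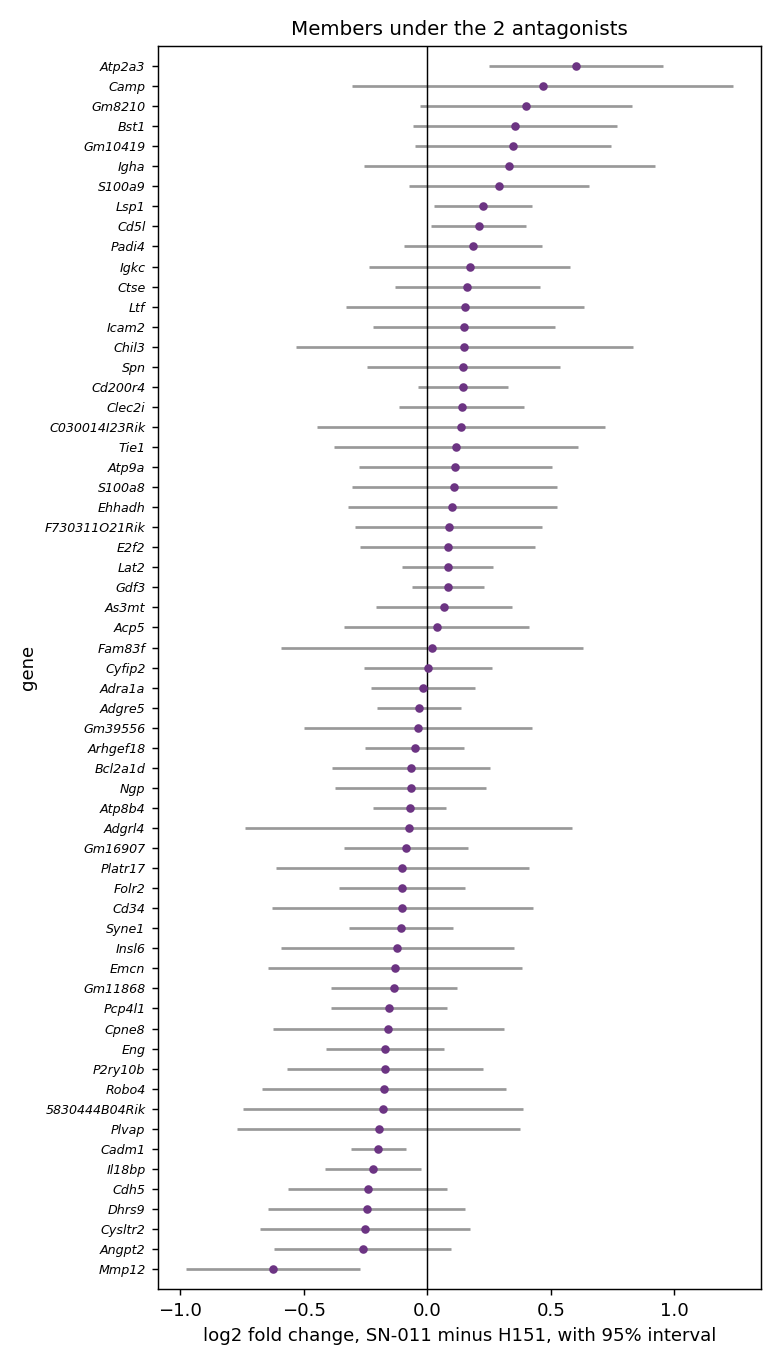
Log2 fold change of SN-011 over H151 in Trex1-KO cells for 61 of the members (points) with 95% intervals from the edgeR fit (lines); the vertical line marks no difference. The intervals of 55 of those drawn cross 0, Mmp12 lies at -0.62 and Atp2a3 at 0.60.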

How the data were processed

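RNA-Seq libraries of BMDMs (8 libraries, 4 groups of 2) were grouped by their sample titles. Per the study's methods, the authors trimmed paired reads with Trimmomatic, aligned them with hisat2 and counted unique read pairs per gene with featureCounts. The submitters' processing notes name HISAT2, HTSeq and mm10, so the counter differs between sources, and versions and the strand setting are not given in the sources used here. The deposited values are raw counts, not normalized, for 54532 Ensembl genes. GENCODE mouse release 21 gave symbols and positions for 54495 of them.

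The 63 members were found with CPM from file totals, where 3 counts, the floor, were worth 0.174 to 0.253 CPM. Members, functional groups and gene lists (interferon-stimulated genes, M7core, the study's modules and cell type markers) were chosen with earlier results of these data known. One edgeR 4.0.16 quasi-likelihood fit over all 8 libraries (TMM factors 0.973 to 1.04, filterByExpr with a minimum count of 10 and total of 15, common biological coefficient of variation 0.0656) covered 14591 genes, with Benjamini-Hochberg adjustment over all of them and a threshold of 0.05. Standard errors are the log2 fold change divided by the square root of F. The script was tested on simulated data. The rule for naming members took the 12 of highest mean CPM in Trex1-KO, the 12 protein-coding and 5 other members of largest ratio to WT, those within 20 Mb of Trex1, those on a gene list, up to 5 called in each direction between the antagonists, those at 1.5 times Trex1-KO under both antagonists (there were 0), and the 3 on either side of each threshold. Other genes were named after their values were seen. Promoter words were searched on both strands. DESeq2 1.42.0 and other settings served as alternatives. Values of 2 members and of some other genes are not reported here singly, though counts and sums include them.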

Additional observations from a re-analysis of the deposited data

How the results depend on the processing

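The number of members was 33 with a mean of at least 10 CPM, 30 with each knockout library at least 2 times the higher WT library and 32 with antagonist means of at least 1 times Trex1-KO, each a narrower rule by construction, and 82 with a mean of at least 1 CPM and 92 with antagonist means of at least 0.8 times, each a wider one. Leaving out a library gave 60 to 89 members and kept 54 to 63 of the 63, with 54 kept without H151 replicate 2. CPM with TMM-scaled library sizes gave 67 members and kept 59 of the 63. Genes called between SN-011 and H151, 23 in the reported fit, numbered 41 with DESeq2 and 266 with every gene of at least 1 count kept, and 2 to 291 when a library was left out: 291 without H151 replicate 2, 2 without SN-011 replicate 1 and 11 without SN-011 replicate 2. The cause was not tested. Members called there, 0 as reported, were 1 (Mmp12) with genes of at least 1 count kept and 0 to 2 with a library left out (Lsp1 and Mmp12 without H151 replicate 2). Members called between H151 and Trex1-KO, 1 as reported, were 2 with total counts only, 2 with genes of at least 1 count kept, 0 in a fit of those groups alone, and 0 to 1 with a library left out, being 0 without either Trex1-KO library, H151 replicate 1 or either SN-011 library. Members called between SN-011 and Trex1-KO, 0 as reported, were 1 (Cd5l) with genes of at least 1 count kept and 0 to 2 with a library left out (S100a8 and S100a9 without Trex1-KO replicate 2). Members called as raised over WT in Trex1-KO cells were 58 to 63 with a library left out. Whether libraries with the same replicate number share a culture is not known, and their deviations correlated at -0.0163 to 0.194 (0.194 between Trex1-KO and H151), so they were not treated as pairs. With the replicate block 44 genes and 0 members were called between SN-011 and H151, with 63 members still higher in Trex1-KO. With 2 libraries a group and 3 counts worth up to 0.253 CPM, differences among the members under 10 CPM were poorly resolved.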
